A study of Mus musculus with 16 samples.

Results

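Cytochrome P450 (Cyp), flavin-containing monooxygenase (Fmo) and carboxylesterase (Ces) genes were followed in primary alveolar type II cells of the mouse lung under normal and raised oxygen. The array carries 118 genes whose name starts with Cyp, Fmo or Ces and a digit, 4 other P450 genes being set aside: Cyp51, Cyp1a1, Cyp1b1 and Cyp2f2. Of the 118, 92 are P450, 7 are Fmo and 19 are Ces genes. Each gene was read from its brightest probe over all 16 arrays and kept if the scanner software called that probe well above background on 3 or 4 of the 4 arrays of some group. That left 70 genes (59 P450, 4 Fmo and 7 Ces) of 25433 genes tested in all, so brightness and detection chose the members and are given below as description only.

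The cells were primary alveolar type II cells from the lungs of C57BL/6 mice, the surfactant-producing cells of the alveolus. The 4 groups were normoxia (21% O2) for 6 h, hyperoxia (85% O2) for 6 h, normoxia for 24 h and hyperoxia for 24 h, with 4 one-colour arrays each. All groups were untreated apart from oxygen as far as the labels state, and age, sex and number of animals are not given in the sources used here. The labels do not say whether replicates came from separate isolations, so p-values measure the spread between these samples, which may be technical.

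P450 enzymes are heme-containing monooxygenases that take electrons from P450 oxidoreductase, or from ferredoxin in mitochondria, and put an oxygen atom into drugs, fatty acids, sterols, retinoids and vitamin D. Flavin-containing monooxygenases oxidise nitrogen and sulfur atoms of foreign compounds, and carboxylesterases of the endoplasmic reticulum cut esters and amides, including many prodrugs and acylglycerols. In the lung these enzymes are best known from club cells and alveolar type II cells, and Fmo2 is known as the lung form of its family.

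Values are log2 signal relative to the 75th percentile of signal of the same array, and a value from one probe is not set against the value of another. Per-array values are in the order of replicates 1 to 4, errors of means are SD, log2 fold changes carry their SE, and n = 4 arrays per group throughout. The words rose and fell are kept for genes with an adjusted p under 0.05 in limma, over all 25433 genes. Arrays had 53.7% to 69.0% of their probes well above background, with a 75th percentile of 899 to 1021 intensity units at 6 h but 556 to 801 at 24 h. Each time point was run on a slide of its own, so time and slide cannot be told apart. Within a slide, oxygen groups sat in different rows, so oxygen and slide row cannot be told apart. Replicate number equalled slide column in every group, so replicate number and column cannot be told apart either. Of 10 tested type II cell markers, including the surfactant protein genes, 9 or 10 were well above background on all 4 arrays of each group, while the probe of Slc34a2 did not pass the filter. All 13 fibroblast and smooth muscle markers were also well above background on every array, as were 7 of 7 mesothelial markers. In bulk samples fewer cells of a type and less RNA per cell cannot be told apart.

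At 24 h of hyperoxia 14 of the 70 members were higher and 2 were lower than in normoxia, led by the 3 carboxylesterase 2 genes Ces2e, Ces2c and Ces2g. All genes tested gave 15.5% higher and 12.8% lower in the same comparison, and the median log2 fold change was 0.11 over the members and 0.01 over all genes. The other genes that rose were Fmo2, the retinoic acid hydroxylase gene Cyp26b1, the oxysterol hydroxylase gene Cyp39a1, 3 Cyp2j and 3 Cyp4f genes, Cyp2b13 and Cyp27a1. The genes called lower were Cyp20a1 and Cyp4f14, of which Cyp4f14 was kept only through its detection in normoxia at 24 h, so its call follows from the choice of members and is read as a description. In 13 of the 70 members the 4 hyperoxia arrays did not overlap the 4 normoxia arrays, 11 of them higher and 2 lower, where 33.2% of all genes did not overlap. Of the 55 members measured in both groups, meaning 3 or 4 arrays of each well above background, 11 rose and 1 fell, and of all genes measured in both groups 30.1% were called in either direction.

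**Figure D1:**
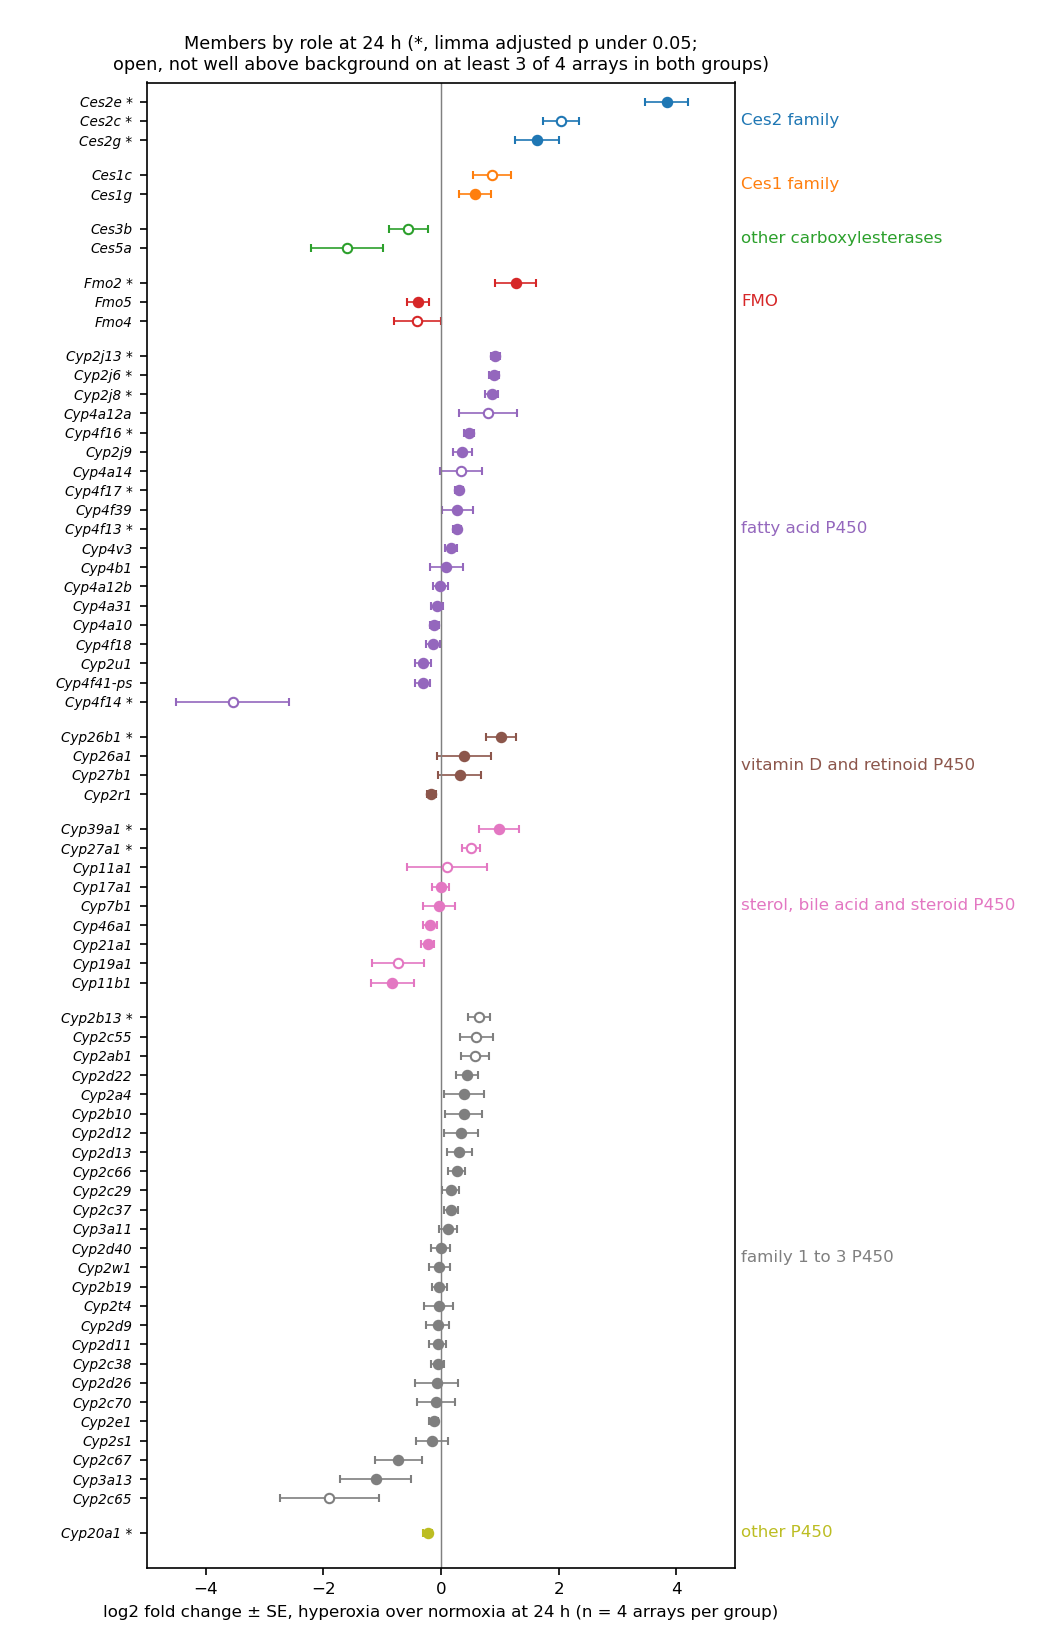
Log2 fold change ± SE of hyperoxia over normoxia at 24 h (horizontal axis) for the members grouped by role, 1 of the 70 being left out, with called genes marked by an asterisk and open circles for genes not measured in both groups. Ces2e stands farthest to the right at 3.84, and Cyp4f14, an open circle, farthest to the left at -3.54.

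Ces2e, which encodes a carboxylesterase, gave the largest rise among the members. Its probe stood at -4.38, -4.19, -5.10 and -4.84 in normoxia at 6 h and at -3.93, -3.74, -3.87 and -3.83 in hyperoxia at 6 h. At 24 h Ces2e stood at -4.53, -3.48, -4.54 and -5.01 in normoxia and at -0.83, 0.60, -0.65 and -1.33 in hyperoxia. Every hyperoxia array at 24 h was thus far above every other array of the series for this gene. The fold at 24 h was 14.3 (log2 fold change 3.84 ± 0.37, adjusted p = 2.34e-06). The groups did not overlap at 6 h either, but there the log2 fold change of 0.79 ± 0.37 did not pass the test (adjusted p = 0.675). The hyperoxia effect on Ces2e was larger at 24 h than at 6 h by 3.05 ± 0.52 on the log2 scale (adjusted p = 0.00144). Such a difference was called for 5 members, all larger at 24 h (Ces2e, Ces2c, Cyp2j6, Cyp2j8 and Cyp2j13), where all genes gave 6.63% higher and 5.63% lower. Among the 55 members measured in all 4 groups it was 4 higher and 0 lower, where 13.2% of such genes were called in either direction. At an unadjusted p under 0.05 in limma it was 11 higher and 5 lower among all 70, where 3427 of all 25433 genes were higher and 2995 lower. Cyp4f14 and Ces5a, each kept only through 1 group, can enter that count through the choice of members. Among the 55 measured in all 4 groups it was 10 higher and 3 lower, where 3139 of 22231 such genes were higher and 2808 lower.

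Ces2g had a like pattern across the arrays at 24 h. Its probe stood at -2.10, -1.26, -1.99 and -2.75 in normoxia and at -0.50, 0.52, -0.45 and -1.13 in hyperoxia, a 3.11-fold rise (1.63 ± 0.38, adjusted p = 0.0046) without overlap. At 6 h Ces2g averaged -2.34 ± 0.59 in normoxia and -2.14 ± 0.40 in hyperoxia, a log2 fold change of 0.20 ± 0.38 (adjusted p = 0.982). The difference between the effects at 24 h and 6 h, 1.43 ± 0.54, did not pass the test (adjusted p = 0.104). In both genes replicate 2 was highest and replicate 4 lowest within normoxia and within hyperoxia at 24 h. The differences within same-numbered arrays were therefore close to each other, at 1.60, 1.78, 1.54 and 1.61 for Ces2g and at 3.70, 4.09, 3.89 and 3.68 for Ces2e.

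Ces2c was well above background on 3 of 4 arrays of normoxia and all 4 of hyperoxia at 6 h, and on 2 of 4 arrays of normoxia at 24 h. At 24 h its probe stood at -5.09, -4.85, -5.76 and -5.22 in normoxia and at -3.32, -2.14, -3.28 and -4.01 in hyperoxia. The groups did not overlap, and the log2 fold change was 2.04 ± 0.30 (4.12-fold, adjusted p = 0.00013). The effect was larger than that at 6 h by 1.51 ± 0.43 (adjusted p = 0.0313). That difference no longer passed without normoxia 24 h replicate 3 (1.34, adjusted p = 0.0622), without normoxia 6 h replicate 3 (1.43, adjusted p = 0.0646) or replicate 4 (1.44, adjusted p = 0.0642), or without hyperoxia 6 h replicate 1 (1.52, adjusted p = 0.0509) or replicate 4 (1.51, adjusted p = 0.055). It was also lost with normexp, another background correction (0.62, adjusted p = 0.0614), with the mean of all probes (0.80, adjusted p = 0.0715) and with no filter on dim probes (adjusted p = 0.0514). The rise at 24 h kept its call in all alternatives run but was 0.76 with normexp and 1.11 with the mean of all probes.

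The probes of Ces2c and Ces2g are shown because they are alike and because both genes lie in the same cluster, with Ces2e and Ces2f between them. Ungapped, 39 of 53 aligned bases were identical (73.6%), which are in capitals. In the array annotation the Ces2c probe also matches Ces2b and the pseudogene Ces2d-ps, so its signal may hold more than one gene. A second Ces2c probe changed by 0.19 at 24 h (adjusted p = 0.274 in a fit over probes) and was well above background on 3 of 4 arrays of normoxia and 4 of 4 of hyperoxia. The Ces2c probe lies at chr8:107378105-107378164 and the Ces2g probe at chr8:107492279-107492338, both on the plus strand of mouse build mm9, as the array files give them.
Ces2c: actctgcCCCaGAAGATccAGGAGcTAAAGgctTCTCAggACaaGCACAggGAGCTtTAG
Ces2g: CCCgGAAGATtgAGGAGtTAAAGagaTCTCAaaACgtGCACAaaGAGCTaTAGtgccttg

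The array names 10 carboxylesterase genes in this stretch of chromosome 8 (408 kb in mm9), Ces2a to Ces4a, and the 3 members that rose lie among 7 others. Of these 7, Ces3b was kept without a call. Ces2a, Ces2b, Ces2f, Ces2h, Ces3a and Ces4a were not kept, so their change was not tested. The second carboxylesterase cluster on the chromosome, with 9 named genes over 469 kb, had 3 kept members (Ces1c, Ces1g and Ces5a) and no call.

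The 100 bases before the transcription start are shown for the 3 genes that rose together. The start and these sequences are from RefSeq on build GRCm38.p6, and each lies on the plus strand: Ces2e at chr8:104926160-104926259, Ces2c at chr8:104846968-104847067 and Ces2g at chr8:104961618-104961717. Capitals mark GAACTT, a hexamer the 3 share in this window, which was picked after the sequences were seen. On the sense strand it stands in the last 100 bases before 2.18% of the 32851 RefSeq starts, and before 4 of the 6 Ces2 genes in that table (Ces2a, Ces2c, Ces2e and Ces2g). Ces2a carries it too and was not kept.
Ces2e: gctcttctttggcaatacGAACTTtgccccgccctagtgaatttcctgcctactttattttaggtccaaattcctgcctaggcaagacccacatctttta
Ces2c: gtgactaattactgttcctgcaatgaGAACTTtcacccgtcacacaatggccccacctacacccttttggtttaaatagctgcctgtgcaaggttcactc
Ces2g: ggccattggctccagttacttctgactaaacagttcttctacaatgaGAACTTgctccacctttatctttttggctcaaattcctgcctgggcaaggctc

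Other motifs were searched on both strands in the 250 bases before each start for the 53 kept members that the RefSeq table holds. A member counted if any of its starts had the motif, whereas the share of all starts is per start (32851 starts of 27025 genes). The member and background shares are thus in unlike units. TGACNNNGC, the core of the antioxidant response element, stood before 2 of the 53 (3.77%), Cyp4f14 and Cyp4f18, and before 10.2% of all starts. GCGTG, the core of the dioxin response element, stood before 11 members (20.8%, against 28.2% of all starts). AGGTCA, a nuclear receptor half-site whose reverse complement can overlap TGACNNNGC, stood before 10 (18.9%, against 4607 of the 32851 starts), and TATAAA before 19 (35.8%, against 12.4%). Of the 12 matched members that rose at 24 h, 0 had TGACNNNGC in this window, 2 had GCGTG, 2 had AGGTCA and 1 had TATAAA. A match or its absence says only which letters the window holds.

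The other carboxylesterases did not pass the test at 24 h. Ces1g, a carboxylesterase of lipid metabolism, stood at -3.40, -2.90, -3.46 and -3.93 in normoxia and at -2.85, -2.02, -3.00 and -3.52 in hyperoxia (0.57 ± 0.27, adjusted p = 0.136), with overlap. Each hyperoxia array of Ces1g was above the normoxia array of the same number, and with the replicate number as a block within each time the same log2 fold change had an adjusted p of 0.00947. Without the block, Ces1g ranged from 0.30 (adjusted p = 0.394, without hyperoxia 24 h replicate 2) to 0.80 (adjusted p = 0.0359, without hyperoxia 24 h replicate 4) with 1 array left out. Ces1c was not well above background on any normoxia array and on 1 hyperoxia array at 24 h, with a log2 fold change of 0.87 ± 0.33 (adjusted p = 0.0626, or 0.000872 with the block). Ces1c passed without normoxia 24 h replicate 1 (1.03) or replicate 2 (1.02), without hyperoxia 24 h replicate 4 (1.10) and without hyperoxia 6 h replicate 1 (0.87), was lowest without normoxia 24 h replicate 4 (0.59, adjusted p = 0.187), and turned to -0.03 with normexp (adjusted p = 0.755). Ces5a gave -1.60 ± 0.61 (adjusted p = 0.0639, or 0.00991 with the block), with 1 of 4 normoxia arrays at -2.83 and no other array of the 24 h groups above -5.51, and passed without normoxia 24 h replicate 3 (-2.12, adjusted p = 0.0136) but was -0.81 without normoxia 24 h replicate 1 (adjusted p = 0.125). Ces3b was above background on no 24 h array. The block also called Cyp2j9 (0.36, adjusted p = 0.0097), Cyp26a1 (0.39, adjusted p = 0.0247) and, lower, Cyp21a1 (-0.23, adjusted p = 0.0412), making 18 members higher and 4 lower at 24 h. The share of all genes called with the block was not counted, so these counts are no result about the members alone.

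**Figure D2:**
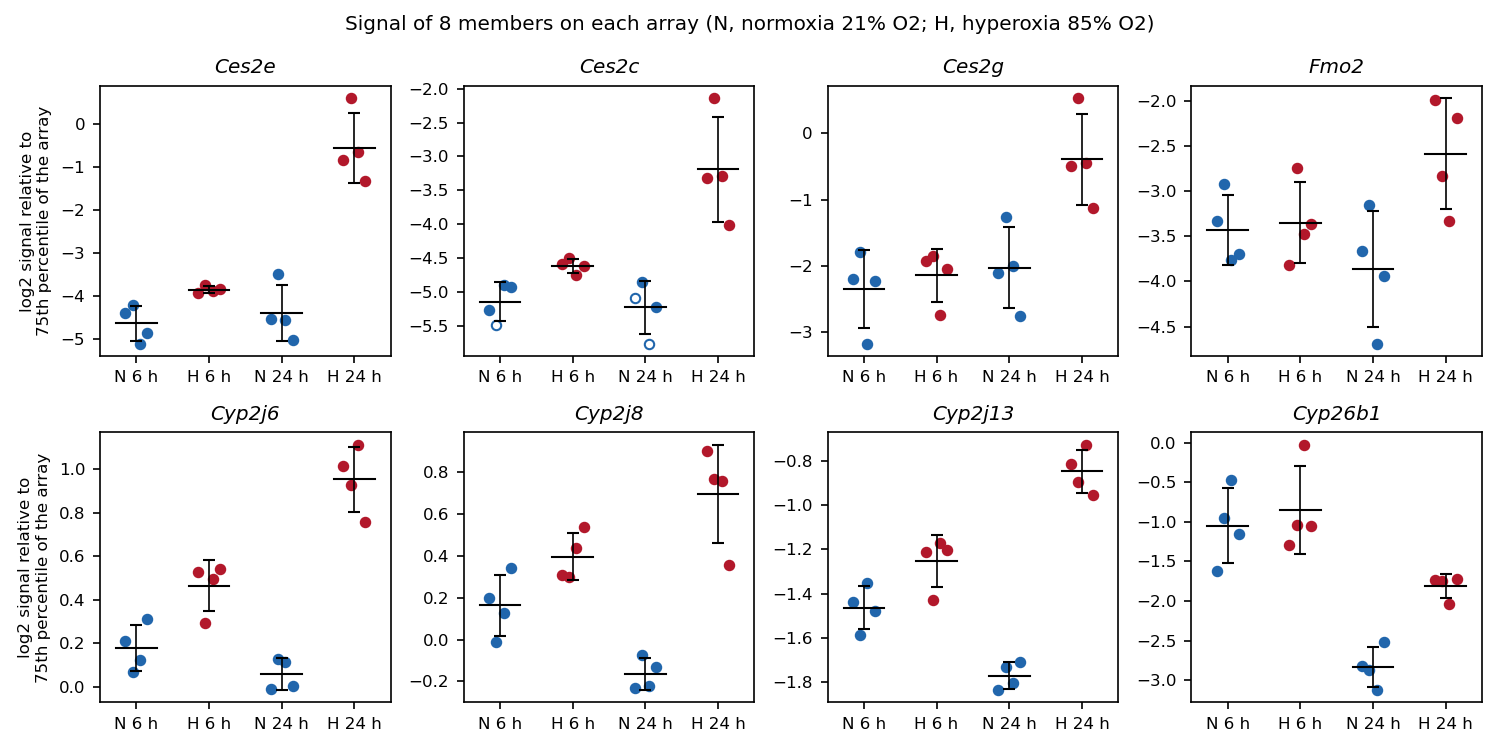
Signal of 8 members on each of the 16 arrays, as log2 relative to the 75th percentile of the array (vertical axis), for normoxia (N, blue) and hyperoxia (H, red) at 6 h and 24 h, with the mean and SD and open circles where an array was not well above background. In Ces2e, Ces2c, Ces2g, Cyp2j6, Cyp2j8, Cyp2j13 and Cyp26b1 the 4 hyperoxia arrays at 24 h lie above the 4 normoxia arrays at 24 h, and in Fmo2 they overlap.

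Of the flavin-containing monooxygenase genes, Fmo2 rose. At 24 h its probe stood at -3.66, -3.15, -4.69 and -3.94 in normoxia and at -1.99, -2.83, -3.33 and -2.19 in hyperoxia, with hyperoxia replicate 3 inside the normoxia range. The rise was 2.42-fold (1.27 ± 0.35, adjusted p = 0.013), with all 4 hyperoxia arrays above the same-numbered normoxia array by 0.32 to 1.75. At 6 h Fmo2 changed by 0.08 ± 0.35 (adjusted p = 0.998), and the difference between the effects, 1.20 ± 0.49, did not pass (adjusted p = 0.14). Fmo4 was well above background on 1 of 8 arrays at 24 h (-0.40 ± 0.40, adjusted p = 0.504). Fmo5, which oxidises ketones to esters, stood at -0.99, -1.06, -0.96 and -0.77 in normoxia and at -1.42, -1.52, -1.17 and -1.25 in hyperoxia at 24 h. Its groups did not overlap, but the log2 fold change of -0.40 ± 0.18 did not pass (adjusted p = 0.128), and it passed without hyperoxia 6 h replicate 3 (adjusted p = 0.00773). A second Fmo5 probe rose by 0.44 (adjusted p = 0.00795 in the fit over probes), so the 2 probes of this gene had opposite signs.

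The 3 neighbouring genes Cyp2j6, Cyp2j8 and Cyp2j13, of a subfamily known for forming epoxides of arachidonic acid, rose by close to equal amounts. Cyp2j6 stood at -0.01, 0.13, 0.12 and 0.00 in normoxia and at 1.02, 0.93, 1.11 and 0.76 in hyperoxia at 24 h (0.90 ± 0.09, 1.86-fold, adjusted p = 2.17e-06). Cyp2j8 stood at -0.23, -0.07, -0.22 and -0.13 in normoxia and at 0.90, 0.77, 0.76 and 0.36 in hyperoxia (0.86 ± 0.11, 1.82-fold, adjusted p = 3.21e-05). Cyp2j13 stood at -1.84, -1.73, -1.80 and -1.71 in normoxia and at -0.81, -0.90, -0.73 and -0.95 in hyperoxia (0.92 ± 0.07, 1.90-fold, adjusted p = 3.98e-07). In none of the 3 did the groups overlap at 24 h.

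At 6 h the same genes lay higher in hyperoxia by 0.29 ± 0.09 for Cyp2j6 (adjusted p = 0.307), 0.23 ± 0.11 for Cyp2j8 (0.675) and 0.21 ± 0.07 for Cyp2j13 (0.466), none of which passed. The effect at 24 h exceeded that at 6 h by 0.61 ± 0.12 for Cyp2j6 (adjusted p = 0.00403), 0.63 ± 0.15 for Cyp2j8 (adjusted p = 0.0148) and 0.71 ± 0.11 for Cyp2j13 (adjusted p = 0.000464). The fourth kept gene of the cluster, Cyp2j9, stood at -2.88, -2.64, -2.74 and -3.18 in normoxia and at -2.47, -2.01, -2.62 and -2.89 in hyperoxia at 24 h, with overlap (0.36 ± 0.16, adjusted p = 0.105). Each hyperoxia array of Cyp2j9 was above the normoxia array of the same number, by 0.12 to 0.64. With the replicate block within each time Cyp2j9 was called higher, as given above.

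The array names 6 Cyp2j genes within 582 kb of chromosome 4 (mm9), in the order Cyp2j13, Cyp2j11, Cyp2j8, Cyp2j6, Cyp2j9 and Cyp2j5, of which Cyp2j11 and Cyp2j5 were not kept. For Cyp2j6 a second probe rose too (0.63, adjusted p = 0.000131 in the fit over probes). For Cyp2j13 a second probe did not (-0.09, adjusted p = 0.76), and the probe used also matches Cyp2j12 in the array annotation. With the mean of all passing probes in place of the brightest, the difference between effects for Cyp2j13 was 0.26 (adjusted p = 0.228). Of these 3 genes a match to one of the 4 motifs was found before the start of Cyp2j13 alone. Cyp2j8 was searched without a match. As 12 of the 14 members that rose were in the promoter table, Cyp2j6 may not have been searched, and no absence is read for it. Its 100 bases before the start, from RefSeq at chr4:96077541-96077640 of GRCm38.p6 on the minus strand, are shown with GCGTG in capitals, beginning 68 bases before the start.
Cyp2j13: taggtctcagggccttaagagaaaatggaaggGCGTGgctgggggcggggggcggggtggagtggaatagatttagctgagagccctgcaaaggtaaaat

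Of the Cyp4f genes, whose enzymes oxidise the chain end of fatty acids and leukotriene B4, 3 rose by smaller amounts. Cyp4f16 stood at 0.56, 0.56, 0.62 and 0.71 in normoxia and at 1.15, 1.23, 0.95 and 1.00 in hyperoxia at 24 h (0.47 ± 0.09, 1.38-fold, adjusted p = 0.000842). Cyp4f17 rose from 0.10 ± 0.07 to 0.41 ± 0.05 (1.24-fold, adjusted p = 0.00225) and Cyp4f13 from 0.54 ± 0.09 to 0.81 ± 0.05 (1.21-fold, adjusted p = 0.00875). The groups of all 3 were apart at 24 h. They lie with Cyp4f39, Cyp4f40, Cyp4f15, Cyp4f14 and the pseudogene Cyp4f41-ps within 459 kb of chromosome 17 (mm9). Cyp4f39 (0.28 ± 0.27, adjusted p = 0.49) and Cyp4f41-ps (-0.31 ± 0.13, adjusted p = 0.089) did not pass, nor did Cyp4f18, which lies elsewhere (-0.14 ± 0.12, adjusted p = 0.458), though a second Cyp4f18 probe fell (-0.31, adjusted p = 0.0279 in the fit over probes).

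Cyp4f14, of the same cluster, was well above background only in normoxia at 24 h, the group through which it was kept, so its differences from that group are given without a test. Its probe stood there at -4.06, -3.99, -0.51 and -7.51, the last not above background, so the 4 arrays spread over a wide range. On the other 12 arrays it was never well above background and stood between -8.06 and -6.78. Cyp4f14 was at least 11.7-fold lower in hyperoxia at 24 h (log2 difference -3.54) on this signal scale. This limit was set by the lowest signal well above background on each array or the dim probe's own signal where that was higher. The difference rested on single arrays, at -2.38 without normoxia replicate 3 and -4.71 without replicate 4, and was -1.08 with another background correction, normexp.

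Among the genes of retinoid and vitamin D turnover, Cyp26b1, which breaks down retinoic acid, rose at 24 h. It stood at -2.82, -2.87, -3.12 and -2.51 in normoxia and at -1.73, -1.75, -2.04 and -1.72 in hyperoxia (1.02 ± 0.26, 2.03-fold, adjusted p = 0.00857), without overlap. At 6 h Cyp26b1 was brighter in both groups, at -1.05 ± 0.48 and -0.85 ± 0.56, so hyperoxia at 24 h stood between normoxia at 24 h and the 6 h groups. Cyp26a1, the other kept retinoic acid hydroxylase, overlapped between groups (0.39 ± 0.46, adjusted p = 0.585). Yet each of its hyperoxia arrays was above the normoxia array of the same number, by 0.11 to 0.62. With the replicate block within each time it was called higher, as given above. The vitamin D 25-hydroxylase gene Cyp2r1 (-0.17 ± 0.08, adjusted p = 0.118) and Cyp27b1, which makes active vitamin D (0.32 ± 0.36, adjusted p = 0.568), did not pass, though a second Cyp2r1 probe fell (-0.33, adjusted p = 0.0254 in the fit over probes).

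Of 9 sterol, bile acid and steroid genes, 2 rose and 0 fell at 24 h, where all genes gave 15.5% higher and 12.8% lower. Cyp39a1, an oxysterol hydroxylase of bile acid synthesis, stood at -0.02, 0.01, 0.92 and 0.12 in normoxia and at 0.68, 0.94, 1.66 and 1.70 in hyperoxia, with overlap (0.98 ± 0.34, 1.98-fold, adjusted p = 0.0424). This call rested on single arrays: it was lost without normoxia 24 h replicate 1, 2 or 4 (log2 fold changes of 0.89, 0.90 and 0.94), without hyperoxia 24 h replicate 3 or 4 (0.85 and 0.83), and without replicate 1 of either 6 h group (0.98 in both), with adjusted p-values of 0.0519 to 0.117, and with no filter on dim probes (adjusted p = 0.0645). Cyp27a1, a mitochondrial sterol hydroxylase, was well above background on no normoxia array and on 4 of 4 hyperoxia arrays at 24 h and was at least 1.43-fold higher in hyperoxia (adjusted p = 0.0242). Its call was lost without normoxia 24 h replicate 3 or 4 (0.42 and 0.48) or hyperoxia 24 h replicate 1, 2 or 4 (0.49, 0.49 and 0.47), and its sign turned under normexp (-0.05). The bright steroid hydroxylase gene Cyp17a1 was level, at 3.41 ± 0.23 in normoxia and 3.40 ± 0.10 in hyperoxia (-0.01 ± 0.14, adjusted p = 0.977).

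Of 26 genes of P450 families 1 to 3, the group best known for foreign compounds, 1 rose and 0 fell at 24 h, where all genes gave 15.5% higher and 12.8% lower. That gene was Cyp2b13, which was well above background on no normoxia array and on 3 of 4 hyperoxia arrays and was at least 1.56-fold higher (adjusted p = 0.0182). Its call was lost without normoxia 24 h replicate 3 (0.57) or replicate 4 (0.58), without hyperoxia 24 h replicate 3 (0.48) and under normexp (0.04). The other genes in this group gave log2 fold changes of -1.90 to 0.60. They included Cyp2b10, known to be induced through the receptor CAR (0.38 ± 0.31, adjusted p = 0.398), the ethanol-oxidising Cyp2e1 (-0.12 ± 0.08, adjusted p = 0.279) and Cyp3a13 (-1.11 ± 0.60, adjusted p = 0.196). The value of Cyp3a13 rests on normoxia replicate 3 at 0.55, the other 7 arrays at 24 h lying between -3.46 and -3.09, and a second Cyp3a13 probe rose by 1.21 (adjusted p = 0.00373 in the fit over probes).

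Cyp20a1, a P450 with no settled substrate, fell slightly at 24 h. It stood at 1.00, 1.18, 1.27 and 0.92 in normoxia and at 0.87, 0.81, 0.96 and 0.83 in hyperoxia (-0.23 ± 0.08, 1.17-fold, adjusted p = 0.046), with overlap. The call was lost without normoxia 24 h replicate 2 or 3 (-0.20 and -0.17), without hyperoxia 24 h replicate 1, 2 or 4 (-0.23, -0.21 and -0.21), and without normoxia 6 h replicate 1 or 2 or hyperoxia 6 h replicate 1 or 4 (-0.23 in each), with adjusted p-values of 0.0548 to 0.141. It was also lost with 5 other settings (adjusted p = 0.0557 to 0.0855): the percentile over detected probes, no filter, the arrays compared alone, array weights and a replicate block over both slides. A second probe fell further (-0.79, adjusted p = 0.0126 in the fit over probes, where the probe used had 0.0503).

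Several members with bright probes did not pass at 24 h. Cyp2u1, which hydroxylates long-chain fatty acids, stood at 5.60, 5.55, 5.57 and 5.59 in normoxia and at 5.17, 5.15, 5.37 and 5.37 in hyperoxia, apart but without a call (-0.31 ± 0.14, adjusted p = 0.116). Its 2 further probes gave 0.12 and 0.71, neither called. Cyp2d11 gave 1.10 ± 0.12 and 1.04 ± 0.02 (-0.05 ± 0.15, adjusted p = 0.832). Of the 7 kept Cyp2d genes of one cluster on chromosome 15 and the 8 kept Cyp2c genes of one on chromosome 19, 0 were called at 24 h, where 28.3% of all genes were called in either direction.

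**Figure D3:**
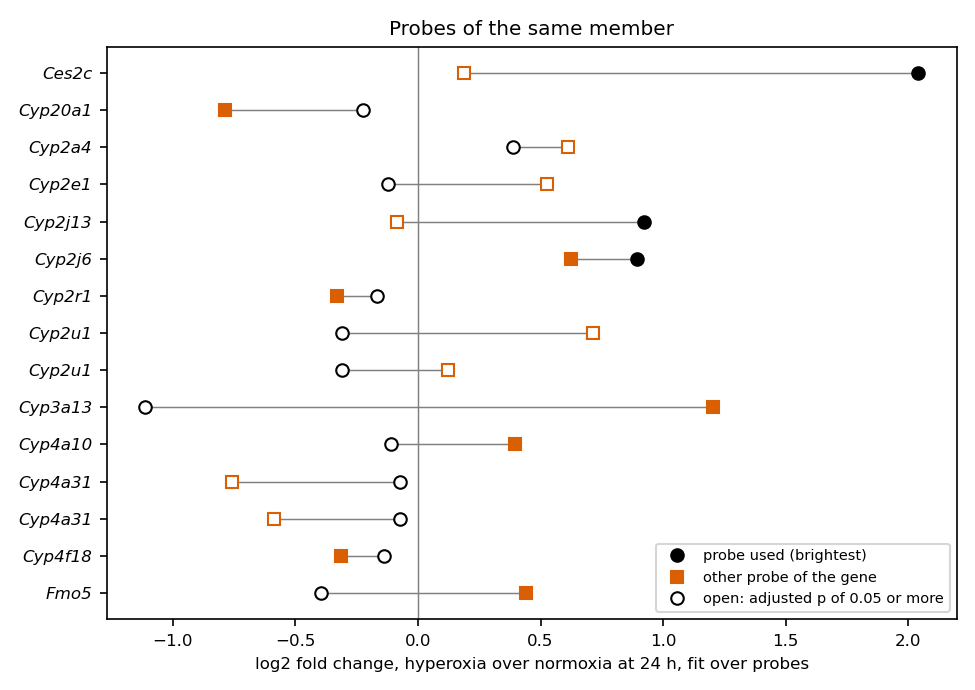
Log2 fold change of hyperoxia over normoxia at 24 h (horizontal axis) for the probe used (circles) and each further probe of the same gene that passed the filter (squares), filled where the adjusted p in a fit over probes was under 0.05. Cyp2j6 is filled and positive for both probes, whereas for Cyp3a13, Cyp4a10 and Fmo5 the further probe is filled and lies on the opposite side of 0.

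For 13 kept members more than 1 probe passed the filter, which gave 15 pairs of the probe used and a further probe. In 7 of the 15 pairs the log2 fold changes at 24 h had opposite signs, and 7 further probes were called. In no pair at 24 h were both called in opposite directions.

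At 6 h 0 of 70 members were called, where 0.236% of all genes were higher and 0.0904% lower. At an unadjusted p under 0.05 in limma, 6 members were higher and 0 were lower, where 1026 of all 25433 genes were higher and 852 lower. These members were Cyp11a1, Cyp2b13, Cyp2b19, Cyp2j6, Cyp2j8 and Cyp2j13. Cyp11a1 was kept only through hyperoxia at 6 h, so its place in this count follows from the choice of members. The nearest to a call was Cyp2b13, at -5.14, -5.80, -5.72 and -5.44 in normoxia and at -4.58, -4.37, -4.84 and -4.56 in hyperoxia (0.94 ± 0.19, adjusted p = 0.0518). Cyp11a1, the side-chain cleavage enzyme of steroid synthesis, stood at -2.05, -2.80, -5.73 and -2.67 in hyperoxia at 6 h, of which replicate 3 was not well above background. In normoxia it stood at -6.03, -5.52, -4.92 and -4.97, and the log2 difference of 2.05 is given without a test. In 4 members the groups at 6 h did not overlap (Ces2c, Ces2e, Cyp2b13 and Cyp3a13), each higher in hyperoxia, where 4.31% of all genes did not overlap in either direction. The median log2 fold change was 0.08 over the members and 0.01 over all genes.

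From 6 h to 24 h more members fell than rose in both oxygen groups. In normoxia 7 of 70 rose and 25 fell, where all genes gave 20.6% and 23.5%, and the median log2 change was -0.29 over the members and -0.02 over all genes. In hyperoxia 12 rose and 22 fell, where all genes gave 25.0% and 27.4%, with medians of -0.29 and -0.02. In the 56 members measured at both times in normoxia 6 rose and 19 fell (43.8% of such genes were called), and in the 58 measured at both times in hyperoxia 12 rose and 18 fell (51.9% of such genes were called). With normexp the normoxia counts turned to 27 higher and 14 lower, and in hyperoxia 23 were higher, the shares of all genes with normexp not being counted. In 30 members the normoxia arrays of the 2 times did not overlap (44.1% of all genes), and in 35 the hyperoxia arrays did not (45.3%). The 2 time comparisons use different arrays: 34 members were called in hyperoxia (52.4% of all genes were), 32 in normoxia (44.2%), and of these 16 members were called lower in both, 2 higher in both and 2 in opposite directions.

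**Figure D4:**
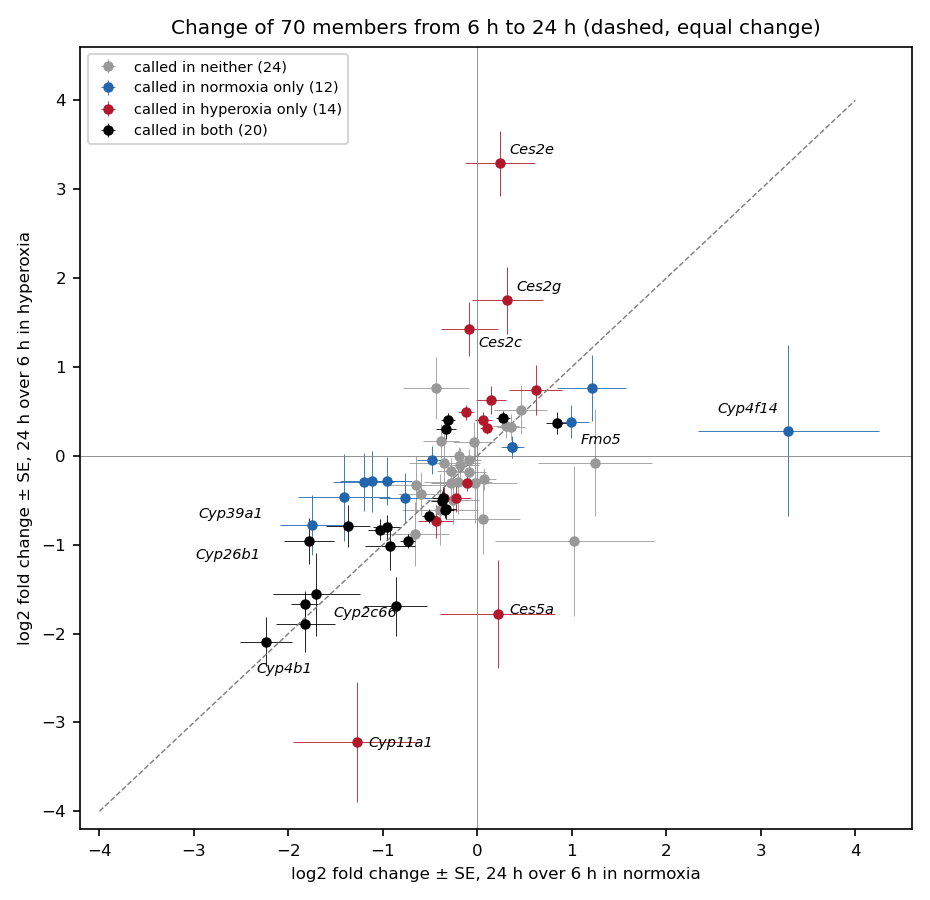
Log2 fold change ± SE of 24 h over 6 h in normoxia (horizontal axis) and in hyperoxia (vertical axis) for the 70 members, coloured by the groups in which the change was called, with equal change along the dashed line. Cyp4b1 and Cyp2c66 lie near the dashed line below 0, and the 3 Ces2 genes lie well above it.

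Cyp4b1, a P450 known from the lung that activates foreign compounds, fell most among the members measured throughout. It stood at -1.12, -1.22, -0.37 and -0.75 in normoxia at 6 h and at -3.17, -3.32, -3.33 and -2.58 at 24 h (-2.24 ± 0.28, 4.71-fold, adjusted p = 4.54e-05). In hyperoxia it stood at -1.15, -1.55, -0.10 and -0.89 at 6 h and at -3.30, -2.78, -3.18 and -2.78 at 24 h (-2.09 ± 0.28, 4.26-fold, adjusted p = 3.16e-05). Cyp2c66, of the Cyp2c subfamily, whose probe also matches Cyp2c65, fell by 1.83 in normoxia (3.55-fold, adjusted p = 2.68e-06) and by 1.67 in hyperoxia (3.17-fold, adjusted p = 5.74e-07). Cyp2b10 fell from -1.75 ± 0.63 to -3.57 ± 0.19 in normoxia (3.53-fold, adjusted p = 0.0004) and from -1.29 ± 0.35 to -3.19 ± 0.57 in hyperoxia (3.72-fold, adjusted p = 0.000168). In all 3 the 6 h and 24 h arrays of each oxygen group were apart.

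Both retinoic acid hydroxylase genes fell with time too. Cyp26a1 fell 3.26-fold in normoxia (adjusted p = 0.00892) and 2.95-fold in hyperoxia (adjusted p = 0.0116). Cyp26b1 fell 3.44-fold in normoxia (-1.78 ± 0.26, adjusted p = 0.000141) and 1.95-fold in hyperoxia (-0.96 ± 0.26, adjusted p = 0.00692), and the difference between those changes did not pass (0.82 ± 0.37, adjusted p = 0.179). Cyp39a1 fell 3.37-fold in normoxia (-1.75 ± 0.34, adjusted p = 0.00103) and gave -0.78 ± 0.34 in hyperoxia (adjusted p = 0.0669), again without a called difference (0.97 ± 0.48, adjusted p = 0.227).

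Cyp4f39 fell 2.02-fold in hyperoxia (adjusted p = 0.00564). Ces1g fell by 0.96 in normoxia, and Cyp2c37 fell by 1.03 in normoxia and 0.83 in hyperoxia, both well above background on all 16 arrays. Both of the 2 kept Ces1 genes were called lower in normoxia (23.5% of all genes were) and 0 in hyperoxia (27.4%). Some other falls concerned dim probes that were well above background on fewer arrays at 24 h than at 6 h. Cyp2ab1 was at least 2.54-fold lower at 24 h in normoxia (adjusted p = 0.000445), a fall whose sign turned under normexp (0.12). Cyp4a12a fell in normoxia (-1.41 ± 0.49, adjusted p = 0.0302), but not without normoxia 6 h replicate 3 (-0.93) or normoxia 24 h replicate 3 (-1.18) or replicate 4 (-1.08), nor with normexp (-0.01), quantile normalization (-1.36), the series table (-1.36) or a fit of the normoxia arrays alone (adjusted p = 0.0962). Cyp11a1, Ces5a and Ces3b were kept only through hyperoxia at 6 h, so their falls from that group follow from the choice of members and are given without a test. At 24 h in hyperoxia Cyp11a1 was at least 9.33-fold lower, Ces5a at least 3.43-fold and Ces3b at least 3.23-fold. With normexp the log2 changes of Ces5a and Ces3b were near 0, at -0.03 and -0.016.

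Members that rose with time were fewer. In normoxia Fmo5 rose from -1.94 ± 0.06 to -0.94 ± 0.12 (1.99-fold, adjusted p = 0.000721), though its second probe gave -0.03 (adjusted p = 0.85 in the fit over probes). Cyp2b19 rose by 0.84 ± 0.12 (1.79-fold, adjusted p = 0.000128), Cyp11b1 by 1.21 ± 0.37 (2.31-fold, adjusted p = 0.0161), Cyp2r1 by 0.37 ± 0.08 (adjusted p = 0.00141) and Cyp4f13 by 0.27 ± 0.07 (adjusted p = 0.0064). Cyp4f18 rose by 0.37 ± 0.12 (adjusted p = 0.0252), a call lost without normoxia 24 h replicate 2 or 3 (0.34 and 0.35) or normoxia 6 h replicate 2 or 3 (0.35 and 0.33), or with the percentile over detected probes (0.33). The called rises also held Cyp4f14, kept only through normoxia at 24 h, which stood at least 9.78-fold above 6 h there (3.29, or 2.12 without normoxia 24 h replicate 3), given without a test.

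In hyperoxia 12 members rose with time, a comparison that shares its hyperoxia 24 h arrays with that against normoxia at 24 h. Ces2e rose 9.79-fold from 6 h to 24 h (3.29 ± 0.37, adjusted p = 6.39e-06), Ces2g 3.36-fold (1.75 ± 0.38, adjusted p = 0.00155) and Ces2c 2.69-fold (1.43 ± 0.30, adjusted p = 0.00128). In normoxia the same genes changed by 0.24 ± 0.37, 0.32 ± 0.38 and -0.09 ± 0.30, none called. Cyp2j6 rose by 0.49 ± 0.09 (adjusted p = 0.000295), Cyp2j9 by 0.63 ± 0.16 (adjusted p = 0.0043), Cyp4f13 by 0.43 ± 0.07 (adjusted p = 0.00017) and Cyp4f16 by 0.41 ± 0.09 (adjusted p = 0.00137). Cyp2j13 and Cyp2j8 were the 2 members called in opposite directions: Cyp2j13 changed by -0.31 ± 0.07 in normoxia (adjusted p = 0.0045) and 0.41 ± 0.07 in hyperoxia (adjusted p = 0.00044), and Cyp2j8 by -0.33 ± 0.11 (adjusted p = 0.0243) and 0.30 ± 0.11 (adjusted p = 0.0318). Cyp2d12 also rose (0.74 ± 0.28, adjusted p = 0.0399), but not with 1 array left out at a time for hyperoxia 24 h replicates 1, 2 and 3 (0.67, 0.67 and 0.74) or hyperoxia 6 h replicates 1, 3 and 4 (0.71, 0.46 and 0.77), nor with 4 other settings (adjusted p = 0.0522 to 0.0728).

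Cyp4a10, a fatty acid hydroxylase gene known as a PPARα target, was the 1 member whose probes were called in opposite directions. The probe used fell with time by 0.51 in normoxia and 0.68 in hyperoxia, whereas the second probe rose by 0.25 (adjusted p = 0.0474 in the fit over probes) and 0.43 (adjusted p = 0.00179). The probe used shares 44 of 47 aligned bases with that of Cyp4a31, which fell with it (-0.34 ± 0.10 in normoxia, adjusted p = 0.0114, and -0.61 ± 0.10 in hyperoxia, adjusted p = 0.000159).

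Markers of several cell types changed over time, some falling and some rising. All genes gave 20.6% higher and 23.5% lower at 24 h in normoxia, and 25.0% higher and 27.4% lower in hyperoxia. Of 7 tested club cell markers 5 were lower at 24 h in each oxygen group and 0 were higher, and their summed level (log2 of the sum, same scale) was 4.55 to 5.58 in normoxia and 4.61 to 5.64 in hyperoxia at 6 h against 0.28 to 0.77 and 0.75 to 1.27 at 24 h. Scgb1a1, the defining secretoglobin of club cells, went from 4.99 to -0.68 in normoxia and from 5.13 to 0.10 in hyperoxia, with all arrays well above background. Of 8 tested ciliated cell markers 5 were lower and 0 higher in each oxygen group. Of 10 type II cell markers 6 were lower and 1 higher at 24 h in normoxia, and 7 lower and 0 higher in hyperoxia. Their summed level was 5.92 to 6.22 and 5.82 to 6.34 at 6 h against 5.32 to 5.51 and 4.89 to 5.20 at 24 h. Of 13 fibroblast and smooth muscle markers 6 were higher and 1 lower in normoxia and 7 higher and 1 lower in hyperoxia, with a summed level of 9.85 to 10.1 and 9.77 to 10.2 at 6 h against 10.6 to 10.8 and 10.5 to 10.6 at 24 h. Of 11 macrophage markers 1 was higher and 4 lower in normoxia and 2 higher and 5 lower in hyperoxia, with a summed level of 4.89 to 5.1 and 4.90 to 5.37 at 6 h against 5.86 to 6.21 and 6.16 to 6.32 at 24 h. Of 8 neutrophil markers 2 were higher and 4 lower in normoxia and 1 higher and 4 lower in hyperoxia. Type I cell markers gave 2 higher and 3 lower of 9 in normoxia and 2 and 4 in hyperoxia, endothelial markers 3 and 1 of 8 and then 1 and 1, lymphocyte markers 1 and 1 of 9 and then 1 and 3, and mesothelial markers 1 and 2 of 7 and then 0 and 2. The part of these cells in the falls of Cyp4b1, Cyp2b10 and the other members was not tested.

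Between the oxygen groups at 24 h, fewer markers were called than over time, as was so for all genes (15.5% higher and 12.8% lower). Of the club cell markers 1 of 7 was higher (Scgb1a1, 0.78 ± 0.25, adjusted p = 0.03) and 0 were lower, and of the type II cell markers 1 of 10 was higher and 4 were lower. Of the ciliated cell markers 3 of 8 were higher, of the macrophage markers 1 of 11, of the neutrophil markers 1 of 8 and of the fibroblast and smooth muscle markers 1 of 13, with 0 lower in each. Type I, endothelial and mesothelial markers gave 0 higher and 1 lower each, and lymphocyte markers 0 and 0. Their part in the rises of the Ces2, Fmo2 and Cyp2j genes was not tested.

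The genes that serve these enzymes were counted in the same fit, in lists drawn up from textbook knowledge. At 6 h 0 genes of the 7 lists were called. At 24 h, when 15.5% of all genes were higher and 12.8% lower, the electron donors gave 2 higher and 3 lower of 12: the cytochrome b5 gene Cyb5 (0.72 ± 0.14) and the heme-binding Pgrmc1 (0.46 ± 0.08) rose, and the cytochrome b5 reductase genes Cyb5r2 (-2.31 ± 0.21) and Cyb5r1 (-1.13 ± 0.11) fell. P450 oxidoreductase itself (Por) gave 0.25 ± 0.10 (adjusted p = 0.0682). Of 16 genes of heme synthesis and breakdown 4 rose and 6 fell, with log2 fold changes over the list of -1.25 to 1.72. Those named here are not the largest changes of the list. Among the rises were the biliverdin reductase gene Blvrb (1.34 ± 0.12) and the heme exporter gene Mfsd7b (0.71 ± 0.12). The falls held the synthesis genes Cpox (-0.63 ± 0.13) and Uros (-0.48 ± 0.11).

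**Figure D5:**
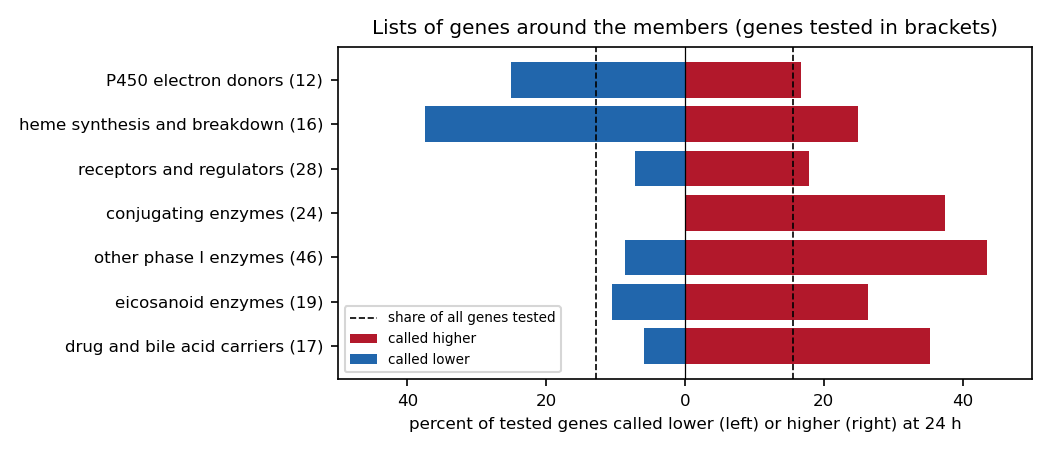
Share of the tested genes of each list called higher (right, red) or lower (left, blue) in hyperoxia at 24 h, in percent, with the shares over all genes tested as dashed lines and the number of genes tested in brackets. The conjugating enzymes have 9 of 24 genes to the right and 0 to the left, and the heme genes have more to the left than to the right.

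Of 28 receptors and regulators of these families 5 rose and 2 fell at 24 h, led by the fall of the hepatocyte factor gene Hnf4a (-1.55 ± 0.19) and the rises of the aryl hydrocarbon receptor repressor gene Ahrr (1.37 ± 0.20) and the retinoic acid receptor gene Rarg (0.73 ± 0.09). Nr1i2, which encodes the pregnane X receptor, rose in the fit (0.86 ± 0.22) but was well above background on no normoxia array and 2 hyperoxia arrays. Of 24 conjugating enzymes 9 rose and 0 fell, led by the glutathione transferase genes Gstm1 (1.49 ± 0.11), Mgst1 (0.94 ± 0.19), Mgst2 (0.77 ± 0.17) and Gstt3 (0.74 ± 0.07). Of 46 other enzymes of oxidation, reduction and hydrolysis 20 rose and 4 fell, led by the quinone reductase gene Nqo1 (3.33 ± 0.22), the alcohol dehydrogenase gene Adh1 (1.98 ± 0.33), the aldo-keto reductase gene Akr1c12 (1.60 ± 0.17) and the carbonyl reductase gene Cbr3 (1.49 ± 0.12).

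Of 19 eicosanoid enzymes, which act on the same fatty acids as the Cyp2j and Cyp4f products, 5 rose and 2 fell, led by the lipoxygenase gene Alox5 (2.96 ± 0.23), the cyclooxygenase gene Ptgs2 (1.09 ± 0.12), Aloxe3 (1.05 ± 0.16) and, lower, the thromboxane synthase gene Tbxas1 (-0.58 ± 0.17). Of 17 drug and bile acid carriers 6 rose and 1 fell, led by Slco4a1 (1.16 ± 0.28), Abcc4 (1.01 ± 0.12), Abcc5 (0.81 ± 0.10) and Abcc1 (0.74 ± 0.09). The medians over the lists ran from -0.08 for the heme genes to 0.33 for the carriers, and over all genes the median was 0.01.

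The 48 genes that were not kept are part of the families too. Of these, 30 were well above background on none of the 16 arrays, 10 on at most 1 array of any group and 8 on at most 2 of 4. The genes just outside the limit included Ces1d (2 of 4 arrays in hyperoxia at 6 h and 1 in hyperoxia at 24 h), Fmo1 (2 of 4 in hyperoxia at 6 h alone), Cyp24a1 and Cyp2j5. Just inside the limit, with 3 of 4 arrays in their best group, were 6 members: Ces1c, Ces3b, Cyp11a1, Cyp19a1, Cyp2c65 and Cyp4f14. Of the 70 kept, 44 were well above background on all 16 arrays, and 55 passed in all 4 groups.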

How the data were processed

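The authors deposited 1 scanner file per array, made with Agilent Feature Extraction 10.7.3.1 per the submitters' processing notes. The processed signal is an intensity from which background and a spatial trend were removed on each array, per the file headers, with no scaling between arrays. Raw spot and background intensity values served 1 alternative. A table of log2 values that the authors deposited for the whole series served another, and how it was normalized is not given in the sources used here. Per the labels, RNA was labelled with Cy3 by a low-input kit.

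Of 62976 spots per array, control spots and outlier spots were left out and spots of a probe averaged, which left 55681 probes. Log2 signals were shifted so that each array's 75th percentile was 0. Genes were called by the array's names, the brightest probe stood for a gene, and 25433 genes passed the filter. No spot was saturated. The number of arrays limits the precision.

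The test was limma 3.58.1 in R 4.3.3, fitted to all 16 arrays with a mean for each group (12 residual degrees of freedom, 2.23 added by moderation), with two-sided contrasts and Benjamini-Hochberg adjustment over all genes tested. It was also run on simulated data for the 24 h comparison, with 50 genes changed at each size and independent noise on each array. There it recovered 50% of genes changed by 0.5 (log2), 78% at 1 and 98% at 2, with 15 false calls among 25433 genes. In the real comparison 28.3% of genes were called and same-numbered arrays correlated, so these rates need not hold for it. A fold against a group with no array well above background is written as at least, and detection on any passing probe of a gene counted there. It uses the dim probe's own signal, or the lowest signal well above background on the array where that was higher. It is no strict lower bound, since it depends on the background correction. With normexp the log2 fold change at 24 h was -0.05 for Cyp27a1, 0.04 for Cyp2b13 and -1.08 for Cyp4f14. Members and lists were chosen with earlier results of these data known.

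Named members were up to 12 called rises and 12 falls per oxygen comparison, up to 8 of each per time comparison and difference, the 8 brightest, every kept Fmo and Ces gene but 1 Fmo gene that is not reported here, members with opposite probe calls, and up to 4 called genes per list. Others (such as the rest of the Cyp2j and Cyp4f clusters) were named after their values were seen. At 24 h residuals of normoxia and hyperoxia arrays with the same number had correlations of 0.246, 0.344, 0.245 and 0.261, above the limit of 0.1 for pairing. At 6 h the correlations were 0.251, 0.254, 0.354 and 0.0866, and between times 0.00437 to 0.0835. Because 0.0866 at 6 h lay under the limit, pairing was taken to hold at 24 h only, from the data and not the labels. Same-numbered arrays also shared a slide column, so pairing of samples and column position cannot be told apart. Promoter sequences are RefSeq's (GRCm38.p6), of 53 of the 70 members.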

Additional observations from a re-analysis of the deposited data

Results flagged for a closer look

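In 11 of 160 groups of 4 arrays checked for the named members, 1 array stood apart from the other 3, and chance alone gives about 1 in 20. On hyperoxia 6 h replicate 1 these were Ces1c at -6.60 (not well above background), Ces1g at -2.27, Cyp11b1 at -3.99 and Cyp2j9 at -2.98. On hyperoxia 6 h replicate 2 it was Cyp2j13 at -1.43, and on normoxia 6 h replicate 2 Cyp2d11 at 1.25. On hyperoxia 24 h replicate 3 these were Cyp26b1 at -2.04 and Fmo4 at -7.61 (not well above background). On normoxia 24 h replicate 2 these were Cyp2b19 at -4.27 and Cyp4f39 at -3.57, and on replicate 3 Cyp39a1 at 0.92.

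The effect of hyperoxia differed between 24 h and 6 h, by the test of the difference, for 5 members: Ces2e (3.05), Ces2c (1.51), Cyp2j13 (0.71), Cyp2j8 (0.63) and Cyp2j6 (0.61), all larger at 24 h. All genes tested gave 6.63% higher and 5.63% lower in this difference.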

How the results depend on the processing

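Of 57 results for single members, 37 kept their direction and side of the threshold under every alternative run, and of 1539 comparisons 1445 were unchanged, 73 lost the call, 19 gained one and 2 changed sign, both under normexp (Cyp27a1 at 24 h, -0.045; Cyp2ab1 with time in normoxia, 0.12). The cause of these changes was not tested. Members higher at 6 h numbered 0, and 1 with quantile normalization, the series table or detection on 4 of 4 arrays, 3 with array weights, and 0 to 2 with 1 array left out (1 without hyperoxia 24 h replicate 1 or 3 or normoxia 6 h replicate 1, 2 without hyperoxia 6 h replicate 3). Members lower at 24 h numbered 2, but 6 with normexp, 5 with weights, 1 with the percentile over detected probes, with no filter, with 4 of 4 arrays or with detection in both groups, and 1 to 4 with 1 array left out (1 without replicate 2 of any group but hyperoxia 6 h, normoxia 6 h replicate 1 or hyperoxia 6 h replicate 4, and 4 without hyperoxia 6 h replicate 3). With time in normoxia normexp gave 27 higher and 14 lower (7 and 25), and in hyperoxia 23 higher (12). Larger effects at 24 h than at 6 h numbered 5, but 3 with the mean of all probes and 8 with weights, and smaller ones 0, but 2, 1 and 5 with normexp, the mean of probes and weights and 0 to 3 with 1 array left out (3 without hyperoxia 6 h replicate 3, 1 without replicate 4 of either 24 h group or normoxia 6 h replicate 1). With the replicate block within each time 18 members were higher and 4 lower at 24 h, and 12 effects were larger and 1 smaller at 24 h than at 6 h, though numbers did not pair samples at 6 h. The 8 differences gained were Ces1c (0.91), Ces1g (0.68), Ces2g (1.43, adjusted p = 0.000227), Cyp26b1 (0.82), Cyp2j9 (0.49), Cyp39a1 (0.97), Fmo2 (1.20) and, smaller at 24 h, Ces5a (-1.99). Ces5a was kept only through hyperoxia at 6 h, so its smaller effect follows from the choice of members and is read as a description. The block over both slides moved none of these counts by over 1.5 times. Shares of all genes called were not counted under these alternatives, so the counts are no result about the members alone. Dim probes near background limit what can be seen of 15 members that did not pass in all 4 groups.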
